A study of Homo sapiens with 12 samples.

Results

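The genes described here are 19 cytosolic aminoacyl-tRNA synthetases and 21 amino acid stress genes, the latter being ATF4, related transcription factors and genes that ATF4 is known to activate. They are the rows of the count table whose symbol is on a list of 40 names, and all 40 were found among the 54628 genes listed. The cells were HUDEP-2, an immortalised human line of early red cell precursors grown with Kit ligand. All of them carried dCas9-KRAB, a transcriptional repressor guided to DNA by RNA, which was delivered by lentivirus and selected as a GFP-sorted population. The guide was either a scrambled control (sgControl) or one directed at an element upstream of EGR1 (sgEGR1). After 5 h without growth factor, cells received PBS or 50 ng/mL of the Kit ligand stem cell factor (SCF) for 1 h. This gave 4 groups of 3 RNA-seq libraries, namely sgControl PBS, sgControl SCF, sgEGR1 PBS and sgEGR1 SCF.

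Aminoacyl-tRNA synthetases join each amino acid to its tRNA and so supply the ribosome. When amino acids run short, heme is low or proteins misfold, kinases phosphorylate the initiation factor eIF2, general translation slows and translation of the ATF4 mRNA rises. ATF4 then activates genes for amino acid synthesis and import, for tRNA charging and for feedback on the response itself. In erythroid cells the heme-regulated kinase HRI, encoded by EIF2AK1, is the best known of these kinases. Growth factor signals can also raise ATF4 through mTORC1. RNA-seq measures mRNA and not eIF2 phosphorylation or protein.

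Library totals ran from 23.5 to 32.04 megacounts, and the 40 genes took 0.453% to 0.533% of the counts. Values are counts per megacount with TMM-scaled totals (CPM). A low count filter kept 15492 genes, including all 40, and the quasi-likelihood test of edgeR gives every adjusted p below, with Benjamini-Hochberg adjustment over all of these genes and calls made under 0.05. Replicate 1 of every group stood apart on the first principal component (17.6% of the variance, -35.3 to -21.7 against 6.85 to 23.7). EGR1, the targeted gene, held 5.99 to 10.9 CPM in sgControl PBS, 0.977 to 2.04 CPM in sgEGR1 PBS and 171 to 239.5 CPM in sgControl SCF. The libraries labelled sgEGR1 SCF held 40.4, 57.4 and 203.6 CPM in replicates 1, 2 and 3, so the library labelled sgEGR1 SCF replicate 3 goes against its label. All 13 erythroid markers passed the low count filter, with a summed level of 26380 to 31490 CPM. Among them HBG1 was listed at 0 in sgControl PBS replicate 1, against 55.8 and 53.9 CPM in replicates 2 and 3. The sums were 0 to 0.597 CPM for 5 lymphoid markers, 3 of which had no count, 8.15 to 10.4 CPM for 5 myeloid markers and 12.2 to 35.6 CPM for 5 megakaryocyte markers.

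The sequence that ATF4 is known to bind with a C/EBP partner, the C/EBP-ATF response element, has the core TGATGNAA. It was sought on both strands of RefSeq promoters (GRCh38.p14, 250 bases before to 50 after the start), and 33 of the 40 genes had such a promoter. The core was present in 6 of 16 synthetase promoters (37.5%) and in 3 of 17 stress gene promoters (17.6%), against 1.66% of the 10992 promoters of tested genes. The synthetases were AARS1, CARS1, IARS1, MARS1, NARS1 and TARS1, and the stress genes were ASNS, CHAC1 and SLC3A2. The core and its flanks are shown for the 6 of these genes that are described in most detail below, on the strand of the gene, with the core in capitals, where TTNCATCA is the core read from the other strand.
CHAC1: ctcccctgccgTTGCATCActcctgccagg
SLC3A2: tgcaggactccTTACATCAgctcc
ASNS: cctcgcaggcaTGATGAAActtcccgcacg
MARS1: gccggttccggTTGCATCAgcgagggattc
NARS1: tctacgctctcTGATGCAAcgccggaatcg
CARS1: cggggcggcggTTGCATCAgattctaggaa
These stretches lie at chr15:40953251-40953280 (plus strand) for CHAC1, chr11:62881725-62881748 (plus) for SLC3A2, chr7:97872458-97872487 (minus) for ASNS, chr12:57488053-57488082 (plus) for MARS1, chr18:57621804-57621833 (minus) for NARS1 and chr11:3057407-3057436 (minus) for CARS1. Counted from the RefSeq start site, the core began at -209 in CHAC1, -68 in ASNS, -4 in MARS1, -2 in CARS1, 15 in NARS1 and 38 in SLC3A2. All 6 stretches lie inside the span of their gene in GENCODE v44, which begins further upstream than the RefSeq start. CHAC1, MARS1 and CARS1 share the same 8 letters, TTGCATCA, and NARS1 holds the same element on the other strand, TGATGCAA. The EGR motif GCGTGGG was present in the promoters of SARS1, CARS1, NARS1 and TRIB3 (18.8% of synthetases and 5.88% of stress genes, against 9.79% of tested genes). The AP-1 motif TGANTCA was present in those of ATF5, DDIT3 and SLC3A2 (0 of 16 synthetases and 17.6% of stress genes, against 4.45%). No 2 matches of different motifs overlapped. These are matches of letters and not measured binding.

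The first question was whether 1 h of SCF altered these transcripts. In sgControl cells, ATF4, CEBPG and CHAC1 rose, and in sgEGR1 cells ATF4, ATF5 and CHAC1 rose. These were 3 of 21 stress genes in each guide group, and 0 of 21 were called lower. Of all genes tested, 2.12% were called higher in sgControl and 1.81% in sgEGR1 cells, and 0.775% and 0.788% were called lower. None of the 19 synthetases was called in either group by edgeR or by DESeq2. At an unadjusted edgeR p under 0.05 there were 0 synthetases in sgControl and 1 in sgEGR1 cells, VARS1, which is listed at 0 counts in many libraries. Stress genes under that limit numbered 9 and 7 of 21, all higher. Of all 15492 genes tested there were 2222 and 2328, of which 1265 and 1262 were higher. The median log2 fold change of the stress genes was 0.27 in sgControl and 0.24 in sgEGR1 cells, that of the synthetases was 0.03 in both, and that of all genes tested was -0.01 and -0.00. With SCF replicate 1 of the guide group left out, the stress gene medians were 0.12 and 0.08. Of 13 erythroid markers, 10 had a negative log2 fold change in sgControl (0 called by edgeR, 3 at an unadjusted p under 0.05). In sgEGR1 cells 13 of 13 were negative (1 called, SLC4A1). Of all 15492 genes tested, 8030 and 7767 were negative. When the library labelled sgEGR1 SCF replicate 3 was left out, HBB and TFRC had values of 0.006 and 0.001 in sgEGR1 cells. SLC4A1 was then not called by edgeR (adjusted p 0.17). Summed marker levels were 27410 to 31490 CPM in sgControl PBS, 26380 to 30020 CPM in sgControl SCF, 29210 to 29920 CPM in sgEGR1 PBS and 27590 to 27960 CPM in sgEGR1 SCF. The 13 protein genes of mitochondrial DNA took 8.93% to 9.22% of counts in sgControl PBS and 7.14% to 8.17% in sgControl SCF, and 8.61% to 8.99% in sgEGR1 PBS and 7.74% to 8.4% in sgEGR1 SCF, lower in every SCF library. The part of these markers and of the mitochondrial share in the results was not tested.

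ATF4 (chr22:39519695-39522683, plus strand, hg38), the transcription factor at the centre of the response, had 222, 231 and 224 CPM in the replicates of sgControl PBS and 296, 290.5 and 309 CPM in sgControl SCF. With sgEGR1 its level was 237, 222 and 207 CPM after PBS and 294.5, 307.5 and 279 CPM after SCF. All 6 SCF libraries lay above all 6 PBS libraries. On the log2 scale ATF4 rose by 0.41 with sgControl (SE 0.0541, adjusted p 0.00173) and by 0.40 with sgEGR1 (SE 0.0542, adjusted p 0.00183), or 1.32-fold in each. When the library labelled sgEGR1 SCF replicate 3 was left out, the sgEGR1 value was 0.44 (adjusted p 0.00451). Rows of ATF4 pseudogenes held at most 23 counts in any library.

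ATF5, a relative of ATF4 that is likewise controlled by translation, had 43.6, 42.5 and 42.2 CPM in sgControl PBS and 51.2, 46.9 and 46.2 CPM in sgControl SCF. Its levels in sgEGR1 cells were 43.7, 38.6 and 38.9 CPM after PBS and 49.7, 49.1 and 47.3 CPM after SCF. The groups did not overlap in either guide background. ATF5 was called in sgEGR1 cells (log2 fold change 0.27, SE 0.0601, adjusted p 0.0352), while in sgControl cells the value was 0.17 (SE 0.06, adjusted p 0.193). That call was lost when the library labelled sgEGR1 SCF replicate 3 was left out (0.29, adjusted p 0.0706). It was also lost without replicate 2 or 3 of sgEGR1 PBS, replicate 1 or 2 of sgEGR1 SCF, replicate 2 or 3 of sgControl PBS or replicate 2 of sgControl SCF, and with the compared groups alone, with adjusted p up to 0.145. Exons of ATF5 (chr19:49928702-49933935, plus strand) overlap those of NUP62 and IL4I1 on the other strand, and strand use in counting is not given in the sources used here.

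CEBPG (chr19:33373685-33382686, plus strand) encodes a C/EBP protein that pairs with ATF4 on its response element. It had 16.9, 15.9 and 15.6 CPM in sgControl PBS and 33.6, 24.8 and 26.0 CPM in sgControl SCF. In sgEGR1 cells it had 19.6, 16.8 and 16.8 CPM after PBS and 38.2, 23.7 and 23.5 CPM after SCF. The groups did not overlap, and replicate 1 was the highest library after SCF with either guide. With sgControl the difference was 0.80 on the log2 scale (SE 0.176, adjusted p 0.0328), and with sgEGR1 it was 0.68 (SE 0.175, adjusted p 0.0659) and not called, while DESeq2 called it there too (adjusted p 0.00629). From replicates 2 and 3 alone it was 0.69 (adjusted p 0.000662) and 0.49 (adjusted p 0.0041). The sgControl call was lost on leaving out replicate 1, 2 or 3 of sgControl PBS, replicate 1 or 3 of sgControl SCF, or replicate 2 or 3 of sgEGR1 PBS, with adjusted p up to 0.123.

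The remaining transcription factors were not called. DDIT3, which encodes the stress factor CHOP, ran from 5.93 to 8.89 CPM over all libraries, with log2 fold changes of -0.07 in sgControl and 0.06 in sgEGR1 cells, and 27.2% of its exon bases overlap another gene. CEBPB, a C/EBP factor of stress and inflammation, had values of 0.24 and 0.49. Its sgControl SCF libraries were split, with 18.5 and 16.8 CPM in replicates 1 and 2 and 7.42 CPM in replicate 3.

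Among the stress effectors, CHAC1 (chr15:40952962-40956512, plus strand), an enzyme that breaks down glutathione, had the highest fold change of the called members. Its level was 1.70, 1.58 and 1.67 CPM in sgControl PBS and 10.1, 5.30 and 6.54 CPM in sgControl SCF. In sgEGR1 cells it was 1.75, 1.83 and 1.5 CPM after PBS and 10.3, 9.26 and 4.71 CPM after SCF. Every SCF library exceeded every PBS library, and the SCF libraries varied more among themselves than those after PBS. These levels stood for 40 to 49 counts after PBS and 151 to 322 counts after SCF. CHAC1 rose 4.43-fold in sgControl (log2 2.15, 95% interval 1.49 to 2.80, adjusted p 0.00265) and 4.79-fold in sgEGR1 cells (log2 2.26, 95% interval 1.60 to 2.92, adjusted p 0.00178). When the library labelled sgEGR1 SCF replicate 3, which had the lowest SCF level of all, was left out, the sgEGR1 value was 2.54 (adjusted p 0.000478).

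DDIT4, which encodes the mTORC1 inhibitor REDD1, had 77.4, 92.8 and 84.2 CPM in sgControl PBS and 123.2, 107 and 108 CPM in sgControl SCF. With sgEGR1, DDIT4 had 79.0, 90.8 and 90.05 CPM after PBS and 132, 105 and 98.5 CPM after SCF. The groups did not overlap, but neither difference was called (log2 fold change 0.41, adjusted p 0.0628 in sgControl; 0.37, adjusted p 0.106 in sgEGR1). DESeq2 called DDIT4 higher in both (0.41, adjusted p 0.00634; 0.36, adjusted p 0.0246). Replicate 1 was the lowest of its group after PBS and the highest after SCF.

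TRIB3, a pseudokinase that restrains ATF4, had 3.47, 2.21 and 2.41 CPM in sgControl PBS and 4.82, 3.47 and 3.17 CPM in sgControl SCF. With sgEGR1, TRIB3 had 3.83, 3.09 and 3.17 CPM after PBS and 5.11, 4.02 and 3.56 CPM after SCF. The groups overlapped, since replicate 1 after PBS exceeded replicate 3 after SCF with either guide, and the log2 fold changes of 0.50 and 0.33 were not called (adjusted p 0.323 and 0.542). SESN2, a leucine sensor that restrains mTORC1, showed 11.2, 8.78 and 8.22 CPM in sgControl PBS and 13.7, 10.1 and 10.3 CPM in sgControl SCF (0.27, adjusted p 0.63). With sgEGR1 it had 12.6, 10.5 and 10.9 CPM after PBS and 16.8, 12.6 and 9.52 CPM after SCF (0.19, adjusted p 0.742). STC2, a secreted glycoprotein, was near the detection floor of 3 counts, with 4, 7 and 0 counts in sgControl PBS and 21, 11 and 17 in sgControl SCF, and with 8, 11 and 6 against 14, 13 and 13 counts in sgEGR1 cells. Its log2 fold changes were 1.86 (adjusted p 0.185) and 0.48 (adjusted p 0.797).

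Of the transporters, SLC3A2 and SLC7A5 encode the chains of one carrier of large neutral amino acids. SLC3A2 had 115.5, 94.99 and 88.3 CPM in sgControl PBS and 147, 115 and 121 CPM in sgControl SCF, and 121, 92.1 and 91.0 against 151, 124 and 122 CPM in sgEGR1 cells. SLC7A5 had 163, 117 and 121 CPM in sgControl PBS and 218, 151 and 135 CPM in sgControl SCF, and 167, 132 and 135 against 211, 161 and 139 CPM in sgEGR1 cells. In each group replicate 1 was the highest for both genes. The log2 fold changes were 0.36 (adjusted p 0.24) and 0.38 (adjusted p 0.194) for SLC3A2 and 0.33 (adjusted p 0.509) and 0.24 (adjusted p 0.652) for SLC7A5. SLC7A11, the cystine importer, had values of 0.04 and -0.00 and stayed between 8.52 and 11.5 CPM. Of the like-named rows, SLC7A5P1 and SLC7A5P2 held up to 79 and 167 counts, against 2967 to 6959 counts for SLC7A5, and how reads that match both were counted is not given in the sources used here.

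None of the 8 enzymes of amino acid and one-carbon metabolism was called. MTHFD2, a mitochondrial one-carbon enzyme, had 45.9, 52.7 and 55.4 CPM in sgControl PBS and 57.8, 66.5 and 74.6 CPM in sgControl SCF, and 42.1, 57.8 and 55.2 against 58.1, 68.9 and 66.1 CPM in sgEGR1 cells. The groups did not overlap with either guide, and the log2 fold changes were 0.37 (adjusted p 0.166) and 0.31 (adjusted p 0.249). The enzymes of serine synthesis had log2 fold changes of 0.10 and 0.21 (PSAT1), -0.02 and -0.06 (PHGDH) and 0.12 and 0.02 (PSPH), in sgControl and sgEGR1 cells in that order. PSAT1 had 50.3, 42.7 and 42.5 CPM in sgControl PBS and 55.1, 44.6 and 45.6 CPM in sgControl SCF, and 53.1, 38.4 and 38.4 against 62.5, 42.4 and 44.7 CPM in sgEGR1 cells. Replicate 1 was the highest of each group for PSAT1. PSPH had 17.7, 17.3 and 15.9 CPM in sgControl PBS and 17.7, 19.6 and 17.9 CPM in sgControl SCF, and 18.3, 17.6 and 15.4 against 16.5, 16.9 and 18.4 CPM in sgEGR1 cells. The like-named row PSPHP1 held 132 to 235 counts against 411 to 588 for PSPH, so PSPH is uncertain where the counting split reads between them. ASNS, asparagine synthetase, which holds the response element shown above, had values of 0.00 (95% interval -0.21 to 0.22) and -0.04 (-0.26 to 0.18). Another gene model on the same strand covers 49.3% of the exon bases of ASNS, which makes its counts uncertain. SHMT2, another one-carbon enzyme, and PCK2, which makes phosphoenolpyruvate in mitochondria, had values of 0.04 to 0.08, and ALDH1L2, a folate enzyme, was at 0 to 18 counts.

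**Figure D1:**
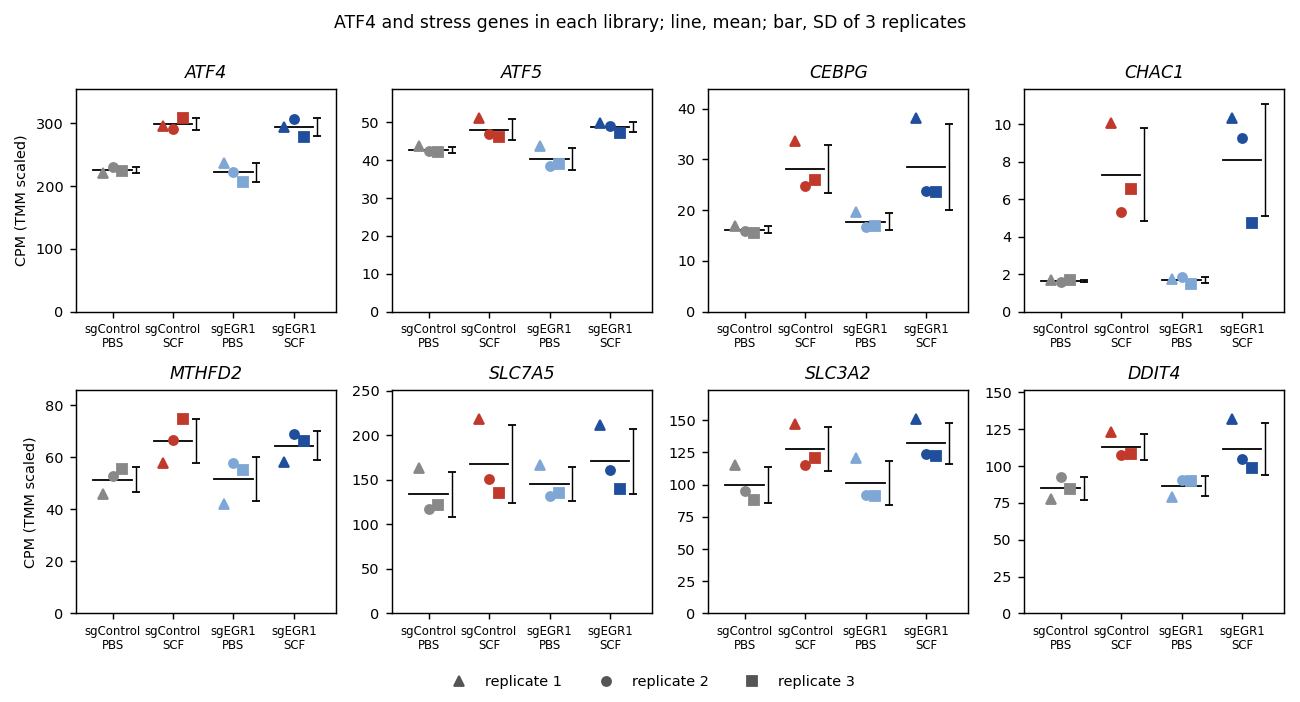
Level in CPM (vertical axes from 0) of 8 stress genes in each of the 12 libraries, by group (horizontal axes); symbols mark the replicate, lines the mean and bars the SD of 3 replicates. ATF4 and CHAC1 are higher in every SCF library than in every PBS library, and replicate 1 is the highest of each group for SLC7A5 and SLC3A2.

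The synthetases moved little. Leaving aside CARS1 and VARS1, the other 17 had levels of 94.96 to 457 CPM over all libraries, and their log2 fold changes after SCF ran from -0.02 to 0.15 in sgControl (median 0.03, 14 above 0) and from -0.08 to 0.11 in sgEGR1 cells (median 0.03, 12 above 0). Over these 17 genes, the 95% intervals spanned at most 0.859- to 1.35-fold in sgControl and 0.83- to 1.31-fold in sgEGR1 cells. GARS1, the glycine enzyme, had the widest of them. MARS1, the methionine enzyme, had the highest fold change of the 17 in both guide groups, with 186, 152.5 and 149 CPM in sgControl PBS and 199, 170 and 173 CPM in sgControl SCF (log2 0.15, adjusted p 0.575). In sgEGR1 cells MARS1 had 193, 161.5 and 158 CPM after PBS and 198, 182 and 174.5 CPM after SCF (0.11, adjusted p 0.676). Within each replicate number MARS1 was higher after SCF, but across numbers the groups overlapped. The end of MARS1 overlaps DDIT3, which lies on the other strand.

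NARS1, the asparagine enzyme, had 161, 163 and 168 CPM in sgControl PBS and 166.5, 179 and 182 CPM in sgControl SCF (log2 0.10, adjusted p 0.361). In sgEGR1 cells it had 157, 171 and 163 CPM after PBS and 158, 166 and 168 CPM after SCF (0.00, adjusted p 0.988). RARS1, the arginine enzyme, had 97.0, 101 and 104 CPM in sgControl PBS and 104.5, 109.5 and 107.5 CPM in sgControl SCF (0.09, adjusted p 0.584), the only synthetase whose groups did not overlap there. With sgEGR1 it had 94.96, 107.5 and 112 CPM after PBS and 107, 115 and 116 CPM after SCF (0.11, adjusted p 0.447). LARS1, the leucine enzyme, had 292.5, 275 and 274 CPM in sgControl PBS against 276, 273 and 281 CPM after SCF, and 297, 272 and 284 against 269, 266 and 275 CPM in sgEGR1 cells (-0.02 and -0.07, adjusted p 0.908 and 0.471). The other 13 had adjusted p of 0.624 or more in sgEGR1 cells and log2 fold changes between -0.08 and 0.11 in both groups. Groups that did not overlap in the higher direction numbered 1 of 19 synthetases and 8 of 21 stress genes in sgControl and 0 and 8 in sgEGR1 cells, against 10.4% and 11.2% of all genes tested.

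**Figure D2:**
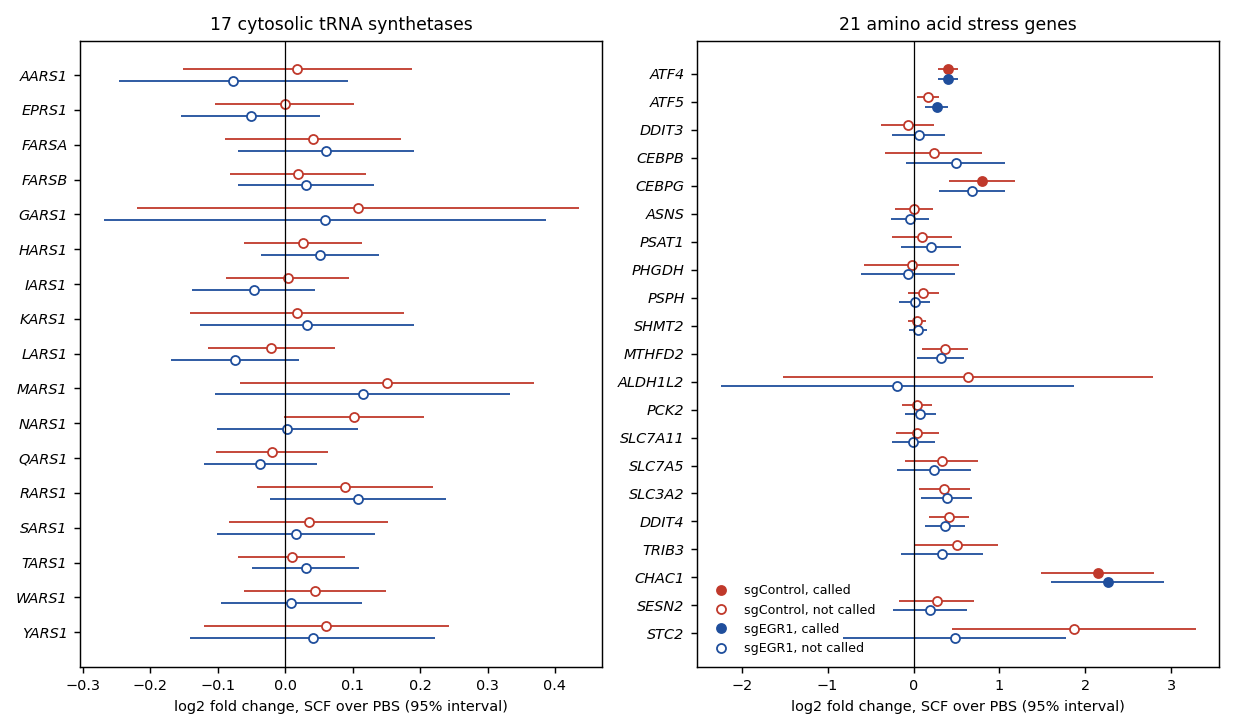
Log2 fold change of SCF over PBS (points) with 95% intervals (bars) for 17 synthetases, left, and 21 stress genes, right, on axes of different scale; red, sgControl; blue, sgEGR1; filled points are called at adjusted p under 0.05. The synthetase estimates lie between -0.08 and 0.15, while ATF4 is near 0.40 and CHAC1 above 2.

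CARS1 and VARS1, the cysteine and valine enzymes, are different in kind. CARS1 was listed at 0, 56 and 106 counts in replicates 1, 2 and 3 of sgControl PBS, at 68, 0 and 0 in sgControl SCF, at 0, 54 and 58 in sgEGR1 PBS and at 99, 58 and 49 in sgEGR1 SCF. VARS1 was listed at 0, 0 and 24 counts in sgControl PBS, at 32, 7 and 0 in sgControl SCF, at 0 in all of sgEGR1 PBS, and at 32, 53 and 0 in sgEGR1 SCF. Zeros occurred after both treatments, with both guides and in each replicate number. Per kilobase of annotated exon, CARS1 averaged 0.161 CPM and VARS1 0.0724 CPM, against 7.39 to 79.4 CPM for the other 17 enzymes. A 0 here can be a failed estimate of the counting step, which was not tested, and no fold change is given for CARS1 or VARS1. Rows named CARS1-AS1, CARS1P1 and CARS1P2 were at 0 counts in every library. When only replicates 2 and 3 entered the fit, CARS1 was called lower after SCF in sgControl cells, higher in sgEGR1 than in sgControl cells after SCF, and for the interaction, and all of these calls rest on the 0 counts of the 2 sgControl SCF libraries.

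**Figure D3:**
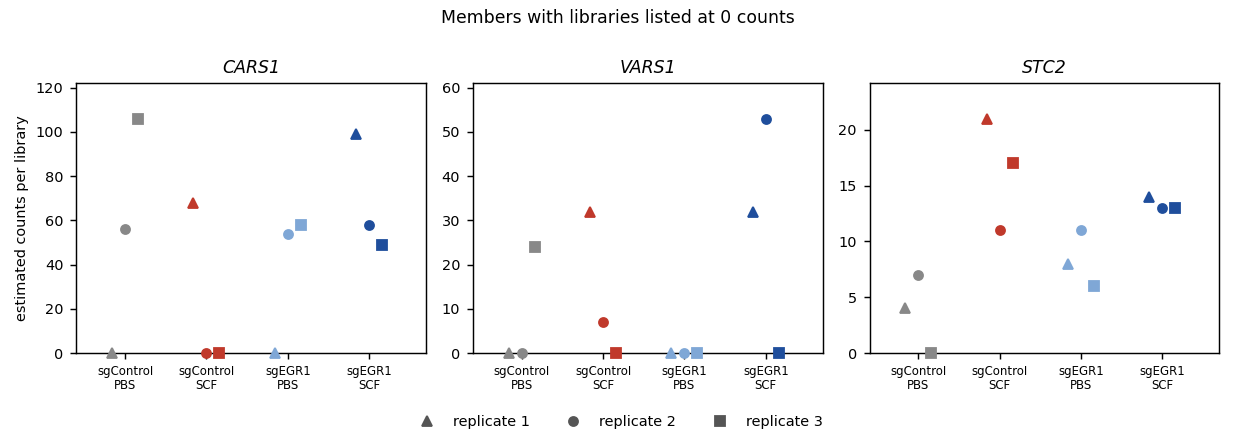
Estimated counts per library (vertical axes) of CARS1, VARS1 and STC2 by group; symbols mark the replicate. CARS1 jumps between 0 and 106 counts and VARS1 between 0 and 53 counts among replicates of one group.

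Replicate number moved with many of these transcripts. In a fit with a term for replicate 1, 6 synthetases and 10 stress genes were called higher in replicate 1 than in replicates 2 and 3, and 6 synthetases and 1 stress gene lower, against 13.1% and 13.4% of all genes. The higher stress genes were ATF5, CEBPG, ASNS, PSAT1, PHGDH, PCK2, SLC7A5, SLC3A2, TRIB3 and SESN2, among them both chains of the neutral amino acid carrier, and the lower one was MTHFD2. The differences that were highest among called members were 0.55 for PHGDH (adjusted p 0.000734), 0.47 for SLC7A5 (adjusted p 1.33e-05), 0.46 for TRIB3 (adjusted p 0.00247) and 0.42 for SESN2 (adjusted p 0.00149), on the log2 scale. PHGDH had 9.07, 5.79 and 6.25 CPM in sgControl PBS, 8.19, 6.53 and 6.07 CPM in sgControl SCF, 10.7, 8.57 and 6.73 CPM in sgEGR1 PBS and 11.4, 7.63 and 5.90 CPM in sgEGR1 SCF. Replicate 1 was the highest of its group in all 4 groups for these 4 genes.

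The synthetases split by replicate number. GARS1 (0.37), MARS1 (0.23), YARS1 (0.19), AARS1 (0.18), SARS1 (0.10) and WARS1 (0.08) were higher in replicate 1, and KARS1 (-0.17), FARSA (-0.11), RARS1 (-0.11), NARS1 (-0.08), FARSB (-0.08) and IARS1 (-0.07) were lower. ATF4 itself differed by 0.02 (adjusted p 0.692) and was not called, nor was CHAC1 at 0.45 (adjusted p 0.0777). Of 16 tested genes on a list of further ATF4 response genes, 10 were higher in replicate 1 and 1 was lower, led by the glutamine transporter SLC38A1 at 1.29. Of 17 mitochondrial synthetases 9 were lower and 0 higher. Of the cell type markers, 5 erythroid genes were lower and 1 higher in replicate 1, and ITGA2B, a platelet integrin, was at -0.93; their part in these differences was not tested. The labels give no batch, and each group holds 1 library of each number.

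**Figure D4:**
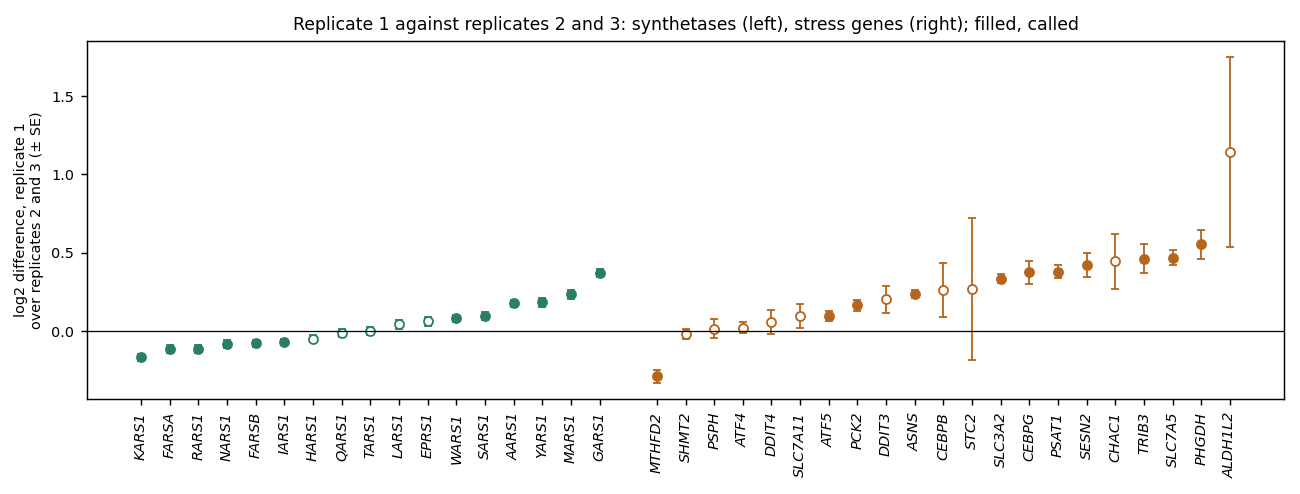
Log2 difference between replicate 1 and replicates 2 and 3 (vertical axis, ± SE) for 17 synthetases, left, and 21 stress genes, right, ordered within each class; filled points are called. GARS1 and PHGDH lead the called genes of their classes, while ATF4 is at 0.02.

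With the term for replicate 1, more SCF responses were called. In sgControl cells these were ATF4, ATF5, CEBPG, MTHFD2, SLC7A5, SLC3A2, DDIT4, TRIB3 and CHAC1 and the synthetase MARS1 (log2 0.15, adjusted p 0.021), that is 9 of 21 and 1 of 19, against 5.28% of all genes called higher. In sgEGR1 cells they were ATF4, ATF5, CEBPG, PSAT1, MTHFD2, SLC7A5, SLC3A2, DDIT4 and CHAC1, again 9 of 21, and 0 of 19 synthetases, against 5.04%. SLC3A2 had adjusted p values of 7.33e-05 and 4.15e-05 in this fit. From replicates 2 and 3 only, 6 stress genes (ATF4, CEBPG, MTHFD2, SLC3A2, DDIT4 and CHAC1) and MARS1 were higher in sgControl and 5 (ATF4, ATF5, CEBPG, SLC3A2 and CHAC1) in sgEGR1 cells, against 2.59% and 2.79%.

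An average of the SCF responses of both guide groups, added after the data were seen, draws on all 12 libraries. It called 7 of 21 stress genes (ATF4, ATF5, CEBPG, MTHFD2, SLC3A2, DDIT4 and CHAC1) and 0 of 19 synthetases, against 5.58% of all genes called higher. The fold changes were 1.32 for ATF4 (95% interval 1.25 to 1.40), 1.16 for ATF5 (1.09 to 1.24), 1.67 for CEBPG (1.39 to 2.02), 1.27 for MTHFD2 (1.11 to 1.45), 1.29 for SLC3A2 (1.12 to 1.5), 1.31 for DDIT4 (1.17 to 1.47) and 4.60 for CHAC1 (3.33 to 6.36). All 6 SCF libraries lay above all 6 PBS libraries for 6 of 21 stress genes and 0 of 19 synthetases, against 4.43% of genes tested. When the library labelled sgEGR1 SCF replicate 3 was left out, the call of MTHFD2 was lost (adjusted p 0.0707) and those of the other 6 were kept. For the 17 synthetases the estimates ran from 0.968- to 1.10-fold, and the widest interval bounds were 0.901- and 1.24-fold. With the term for replicate 1 the average called 10 stress genes, adding PSAT1, SLC7A5 and TRIB3, and 3 synthetases, GARS1, MARS1 and RARS1, at 1.06-, 1.10- and 1.07-fold in the fit without the term, against 10.2%.

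The second question was whether the EGR1 guide altered these genes or their SCF response. By edgeR, 0 of 40 were called between guides after PBS, after SCF or for the interaction, which is the response in sgEGR1 minus that in sgControl cells. At an unadjusted p under 0.05 there were also 0 of 40, and DESeq2 called 0. These tests did not pair libraries by replicate number. A fit with a term for each number also called 0 members, and its share of all genes was not computed. In the unpaired edgeR test, 0% of all genes tested were called in each of these 3 comparisons. Before adjustment, 715, 361 and 306 genes had p under 0.05. EGR1, the gene targeted by the guide, was itself not called. Its log2 difference of sgEGR1 from sgControl was -2.59 in PBS libraries (edgeR p 0.00721, adjusted 0.9994). In SCF libraries it was -1.03 (edgeR p 0.0406, adjusted 0.9998). That value includes the library labelled sgEGR1 SCF replicate 3, at 203.6 CPM, against 40.4 and 57.4 CPM in replicates 1 and 2. Because these tests did not call the lower level of their own target, 0 of 40 calls does not show that the guide had no effect. For ATF4 the interaction was -0.00 on the log2 scale (95% interval -0.17 to 0.16), for ATF5 0.10 (-0.08 to 0.29), for CEBPG -0.12 (-0.66 to 0.42) and for CHAC1 0.11 (-0.81 to 1.03). For the 17 synthetases it ran from -0.10 to 0.03. When the library labelled sgEGR1 SCF replicate 3 was left out, the interaction of CHAC1 was 0.39 and that of ATF4 0.03, and neither was called. The SCF responses of both guide groups come from separate libraries, and the intervals leave room for differences of the stated size.

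Lists of related genes placed these values in context. The counts of called genes below stand against the 2.12% (sgControl) and 1.81% (sgEGR1) of all genes tested that were called higher. Of 15 genes of eIF2 control, 3 rose in sgControl cells. These were PPP1R15B, a subunit of the phosphatase that reverses eIF2 phosphorylation, from a mean of 71.3 to 95.9 CPM (log2 0.43, adjusted p 0.00115), the kinase gene EIF2AK3 (0.38, adjusted p 0.042) and the eIF2 subunit gene EIF2S1 (0.20, adjusted p 0.0403). The calls of EIF2AK3 and EIF2S1 were lost when the library labelled sgEGR1 SCF replicate 3 was left out (adjusted p 0.0607 and 0.062), although that library is not in the sgControl groups and their log2 fold changes stayed at 0.38 and 0.20. In sgEGR1 cells 1 rose, PPP1R15B from 70.3 to 98.9 CPM (0.49, adjusted p 0.000489). EIF2AK1, which encodes HRI, had means of 598, 572, 609 and 581 CPM in sgControl PBS, sgControl SCF, sgEGR1 PBS and sgEGR1 SCF and was not called.

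Among 17 mitochondrial synthetases, 1 rose in each guide group. This was MARS2, the mitochondrial methionine enzyme, which went from 7.18 ± 0.324 CPM (SD, n = 3) to 11.2 ± 1.19 CPM in sgControl cells (log2 0.64, adjusted p 0.0262) and from 5.73 ± 0.857 to 11 ± 1.46 CPM in sgEGR1 cells (0.94, adjusted p 0.00294). Among 4 partners of the synthetase complex 0 were called by edgeR, with 1 and 0 at an unadjusted p under 0.05. Of 16 tested further ATF4 response genes, 1 was called higher with each guide, the glutamine transporter SLC1A5 (0.34, adjusted p 0.00484 in sgControl; 0.33, adjusted p 0.00553 in sgEGR1). On that list 9 genes had a positive and 7 a negative log2 fold change in sgControl (median 0.00). In sgEGR1 cells 5 were positive and 11 negative (median -0.07). Of 12 genes of endoplasmic reticulum stress, 1 rose with each guide, the transcription factor XBP1 (0.51, adjusted p 0.00518; 0.51, adjusted p 0.00527). None of the genes on these lists was called lower. On the endoplasmic reticulum list 2 of 12 had a negative log2 fold change in sgControl and 3 of 12 in sgEGR1 cells. DNAJB9 was among them, with means of 8.32 and 6.45 CPM in sgControl PBS and SCF, and 7.81 and 6.30 CPM in sgEGR1 PBS and SCF. PPP1R15B, MARS2, SLC1A5 and XBP1 were also called in both guide groups when the library labelled sgEGR1 SCF replicate 3 was left out. Of the 13 erythroid markers, SLC4A1, the anion exchanger of the red cell membrane, fell by 0.31 on the log2 scale in sgEGR1 cells (adjusted p 0.0471; 0.17 when the library labelled sgEGR1 SCF replicate 3 was left out), and in bulk RNA fewer cells of a type and less RNA per cell cannot be told apart.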

How the data were processed

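The authors aligned paired-end RNA-seq reads with HISAT (build hg38). The values they deposited are estimated counts that StringTie gave each gene, unscaled for depth or length, with 1 column per library and no pooling. The annotation release, multi-mapping reads and strand use in counting are not given in the sources used here, and labels and methods name different library kits. All deposited values were whole, so rounding changed 0 of them. The column code for the second guide was read as sgEGR1, since the labels hold no other construct besides the scrambled control. The 40 members, the lists and the tests were chosen with earlier results of these data known.

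edgeR 4.0.16 in R 4.3.3 (TMM, filterByExpr, quasi-likelihood F test, 1 coefficient per group, all 12 libraries) was the main test, with a gene called at an adjusted p under 0.05. An SE is the log2 fold change over the square root of F. The code was tested on simulated data. DESeq2 1.42.0 was an alternative, with other scaling, no filter, only the compared groups, replicate terms and left-out libraries. Replicate numbers were taken to pair the guides, since residuals of same-numbered libraries correlated at 0.232, 0.103 and 0.119 after PBS and 0.269, 0.102 and 0.126 after SCF. The main fit left this pairing out, so the guide and interaction values above are unpaired, and the replicate block was an alternative fit. The numbers come from the labels, which state no shared day. No replicate pair agreed within sampling noise. The study calls its replicates biological, but the labels name no separate cultures, so p-values measure the spread between these libraries. The average SCF response, and its fit and that of related genes without the library labelled sgEGR1 SCF replicate 3, were added after the data were seen. Floors (3 counts) cover counting error only.

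Values per library are given for members called in any of the SCF, guide and interaction comparisons, for the 3 with the smallest p per class in each SCF comparison and the interaction, for ATF4, ATF5, CARS1 and VARS1, and for the 4 largest replicate 1 differences among the genes called for it. PSAT1, SLC3A2, MTHFD2, DDIT4, and those named only in counts were added after their values were seen. Gene positions are from GENCODE v44 on hg38, and promoter sequences are from RefSeq (GRCh38.p14).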

Additional observations from a re-analysis of the deposited data

How the results depend on the processing

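ATF4 and CHAC1 were called in both guide groups under all 21 alternatives, with log2 fold changes of 0.35 to 0.45 for ATF4 and 1.85 to 2.54 for CHAC1. CEBPG was called in 14 of 21 in sgControl and 5 of 21 in sgEGR1 cells, and ATF5 in 3 and 12 of 21. No called value changed sign under these alternatives. The number of stress genes called after SCF in sgControl cells was 9 with the replicate block, 9 with the term for replicate 1, 9 with that term when the library labelled sgEGR1 SCF replicate 3 was left out, and 6 from replicates 2 and 3. In sgEGR1 cells it was 7, 9, 8 and 5, and 5 with DESeq2. Synthetases called in sgControl cells numbered 1, 1, 1 and 2, and from replicates 2 and 3 CARS1 alone was called between guides after SCF and for the interaction (1 each). Of all genes, 2.12% (sgControl) and 1.81% (sgEGR1) were called higher in the main fit. With the term for replicate 1 the shares were 5.28% and 5.04%, and from replicates 2 and 3 they were 2.59% and 2.79%. For the other fits no share of all genes was computed, so their counts of members lack that background. In the SCF comparisons same-numbered residuals correlated at 0.272, 0.00766 and 0.108 in sgControl and 0.23, 0.0749 and 0.062 in sgEGR1 cells, so the numbers were not taken as pairs there, and not every library correlated best with its own number. Between guides, the block changed no call of a member. Without TMM the synthetase median in sgControl cells was 0.0548, where the median of all genes shifts by 0.0281. Leaving out 1 library each, counts of stress genes called were 2 to 4 in sgControl and 2 to 3 in sgEGR1 cells. Medians of stress genes were then 0.124 to 0.351 (lowest without sgControl SCF replicate 1) and 0.0768 to 0.331 (lowest without sgEGR1 SCF replicate 1), and between guides after SCF -0.0403 to 0.14. Medians of synthetases were 0.011 to 0.0422 for SCF in sgEGR1 cells, -0.0228 to 0.0303 and -0.0134 to 0.0245 between guides after PBS and SCF, and -0.0406 to 0.00267 for the interaction. The cause of these differences was not tested. Low counts limit STC2 and ALDH1L2, which held at most 21 and 18 counts in a library. CARS1 and VARS1 were both listed at 0 in sgControl SCF replicate 3 (31.56 megacounts), and the part of depth in their zeros was not tested.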
